A study of Mus musculus with 24 samples.

Results

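Livers of mice lacking Jnk1 in hepatocytes were compared 28 d after bile duct ligation with livers of the same genotype 48 h after it. The comparison set the 3 arrays labelled JNK1dhepa BDL 28d against the 3 labelled JNK1dhepa BDL 48h, 6 of the 24 arrays in the series, across 18820 gene symbols. The mice, written JNK1Δhepa here, carried JNK1f/f alleles and a Cre transgene driven in hepatocytes by the albumin promoter, so the other cells of the liver kept the gene. All were males on the C57/BL6 background with a ligated common bile duct. The animals were 12 weeks old at 28 d and 8 weeks old at 48 h, so time after the operation and age cannot be told apart. The series also held, at 28 d and 48 h each, 3 ligated JNK1-/- livers (lacking the gene in every cell), 3 ligated JNK1f/f control livers (Con) and 3 sham-operated Con livers. No sham-operated JNK1Δhepa liver was analysed here. Values were log2 intensities, so a difference of 1 is a 2-fold change, and they do not compare levels between genes.

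Ligation of the common bile duct stops bile outflow. In the first days retained bile acids injure hepatocytes, the liver makes acute phase proteins and cells enter the cell cycle; over weeks bile ducts multiply and myofibroblasts lay down collagen. Jnk1, gene symbol Mapk8, encodes a kinase activated by stress and cytokines that phosphorylates Jun, a subunit of the AP-1 transcription factor. In whole liver, fewer cells of a type and less RNA per cell cannot be told apart.

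The targeted gene was read first. Mapk8 stood at 7.67, 6.90 and 6.97 at 28 d, against 6.77, 6.81 and 6.76 at 48 h. The first 28 d array thus lay above the other 5, at a level inside the range of the ligated Con livers at 28 d (7.41 to 7.67), while ligated JNK1-/- livers lay between 5.18 and 6.11 at 28 d. The library labelled replicate 1 at 28 d does not show the lower Mapk8 of its group, and the sources used here do not place its probes inside or outside the deleted exons. Sham Con livers at 48 h were also low (6.67 to 6.93), against 7.52 to 7.54 in sham Con livers at 28 d. Over all genes, replicate 1 at 28 d lay more than 1 log2 unit from both other 28 d arrays on 121 genes, against 6 and 18 genes for replicates 2 and 3, and the array closest to it was replicate 1 of the ligated Con livers at 28 d (Pearson's r across genes = 0.993, the same to 3 digits as its best match within its own group). At 48 h, replicate 3 lay apart on 93 genes. The array closest to it was replicate 1 of the ligated Con livers at 48 h (Pearson's r across genes = 0.9956, against 0.994 for its best match within its own group). It also carried markers of the exocrine pancreas, an organ that borders the bile duct. The part of pancreatic RNA in its distance was not tested. Ctrb1, a chymotrypsinogen, stood at 4.39, 4.35 and 4.27 at 28 d, against 4.12, 4.37 and 8.03 at 48 h. Of the 11 pancreatic markers measured none passed the test, and their mean level was 3.93 to 4.05 at 28 d and 3.96 to 5.75 at 48 h. For part of the lists, counts below are therefore also given without 1 or the other of these arrays, alternatives added after the data were seen. No fit left out both. Hepatocyte markers fitted the tissue label: 19 were measured, with a mean log2 level of 12.1 to 12.2 on all 6 arrays, and Alb, serum albumin, differed by -0.07 ± 0.06 (SE, adjusted p = 0.502).

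Between 28 d and 48 h, 1751 genes were higher and 1631 lower in ligated JNK1Δhepa liver at an adjusted p under 0.05 (limma with Benjamini-Hochberg adjustment over all genes), which is 9.3% and 8.67% of the genes tested. A change of at least 2-fold was reached by 309 of the higher and 397 of the lower genes. The median difference over all genes was 0.01, and the median SE of a difference was 0.129. The 3 arrays of each group did not overlap for 19.6% of all genes upward and 19.3% downward. Without replicate 1 at 28 d the counts were 1041 and 878, and without replicate 3 at 48 h they were 1393 and 1232. The p-values rest on 1 moderated spread per gene, pooled within all 8 groups of 3 arrays, so they do not measure the spread of these 6 arrays alone. The labels do not tie arrays to animals. The counts in the lists below stand against the shares of 9.3% higher and 8.67% lower over all genes.

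The largest rise was that of Sult1e1, the sulfotransferase that inactivates oestrogens. Its log2 intensities were 11.67, 11.36 and 11.46 at 28 d, against 4.59, 6.41 and 3.69 at 48 h. All 28 d arrays were close together while the 48 h arrays were far lower and spread widely, and the difference was 6.60 ± 0.68 (SE, adjusted p = 1.11e-05). Bmper, a secreted regulator of BMP signalling, stood at 9.57, 8.57 and 8.72 at 28 d, against 5.36, 5.47 and 4.09 at 48 h, a difference of 3.98 ± 0.52 (SE, adjusted p = 9.78e-05). Timp4, an inhibitor of metalloproteinases, stood at 9.63, 8.00 and 8.56 at 28 d, against 4.84, 4.83 and 4.80 at 48 h (3.91 ± 0.61 SE, adjusted p = 0.000368). In both genes the groups were far apart and replicate 1 was the highest 28 d array. Ppp1r3g, which targets protein phosphatase 1 to glycogen, had 10.37, 7.93 and 7.75 at 28 d, against 5.07, 4.66 and 4.91 at 48 h. Here replicate 1 lay more than 2 log2 units above the other 28 d arrays, and the difference was 3.80 ± 0.69 (SE, adjusted p = 0.00103). Lrtm2, a leucine-rich repeat membrane protein, varied least among the leading genes, with 7.93, 7.80 and 7.37 at 28 d, against 4.69, 4.36 and 4.48 at 48 h (3.19 ± 0.26 SE, adjusted p = 2.19e-06). Treh (trehalase) and Miox, which opens the ring of myo-inositol, differed by 3.22 and 3.08. Setdb2, a histone methyltransferase, and its chromosomal neighbour Phf11c rose alike: Setdb2 stood at 11.13, 9.87 and 9.87 at 28 d, against 7.44, 7.54 and 7.60 at 48 h and Phf11c at 10.96, 9.70 and 9.45 at 28 d, against 6.80, 7.40 and 7.21 at 48 h. Neither gene's groups overlapped, and the differences were 2.76 and 2.90. Bcl2l11, the pro-apoptotic protein Bim, stood at 8.92, 7.85 and 8.02 at 28 d, against 5.58, 5.69 and 5.59 at 48 h (2.64 ± 0.44 SE, adjusted p = 0.000551), and Nqo1, a quinone reductase controlled by NRF2, differed by 2.58. The remaining 4 of the 15 leading genes were Slc4a9, Slc22a27, Ciart and Per3, with differences of 3.14, 2.52, 3.03 and 2.59.

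The largest fall was that of Mup3, a major urinary protein that carries pheromones. It stood at 5.59, 7.53 and 6.28 at 28 d, against 12.28, 12.31 and 12.42 at 48 h. The 48 h arrays were close together, every 28 d array was lower by more than 4 log2 units, and the difference was -5.87 ± 0.52 (SE, adjusted p = 3.2e-06). Saa2, the acute phase apolipoprotein serum amyloid A, fell to 5.76, 7.81 and 8.85 at 28 d, against 13.03, 12.99 and 12.21 at 48 h. Replicate 1 was the lowest of the 28 d arrays, and the difference was -5.27 ± 0.91 (SE, adjusted p = 0.000682). Car3, a carbonic anhydrase abundant in male liver, stood at 5.41, 7.02 and 7.44 at 28 d, against 11.07, 10.69 and 12.36 at 48 h (-4.75 ± 0.69 SE, adjusted p = 0.000214), and Fabp1, the liver fatty acid-binding protein, at 6.40, 8.02 and 8.67 at 28 d, against 12.17, 11.72 and 12.31 at 48 h (-4.37 ± 0.68 SE, adjusted p = 0.000369). In both genes replicate 1 was again the lowest, and the groups did not overlap. Ces3a, a carboxylesterase, and Serpina7, the thyroxine-binding globulin, fell by 3.58 and 3.19 on the log2 scale, and Mup6 fell by 3.78. Cxcl9, Saa3, Slco1a1, Ppp1r3c, Keg1 and Acacb were the other leading genes and fell by 3.03 to 3.99. Chrna4, a subunit of the nicotinic acetylcholine receptor, and the serpin pseudogene Serpina4-ps1 fell by 3.76 and 3.83. The probe sets of Mup and Saa genes can share sequence within their families, so a value may belong to more than the named member.

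**Figure D1:**
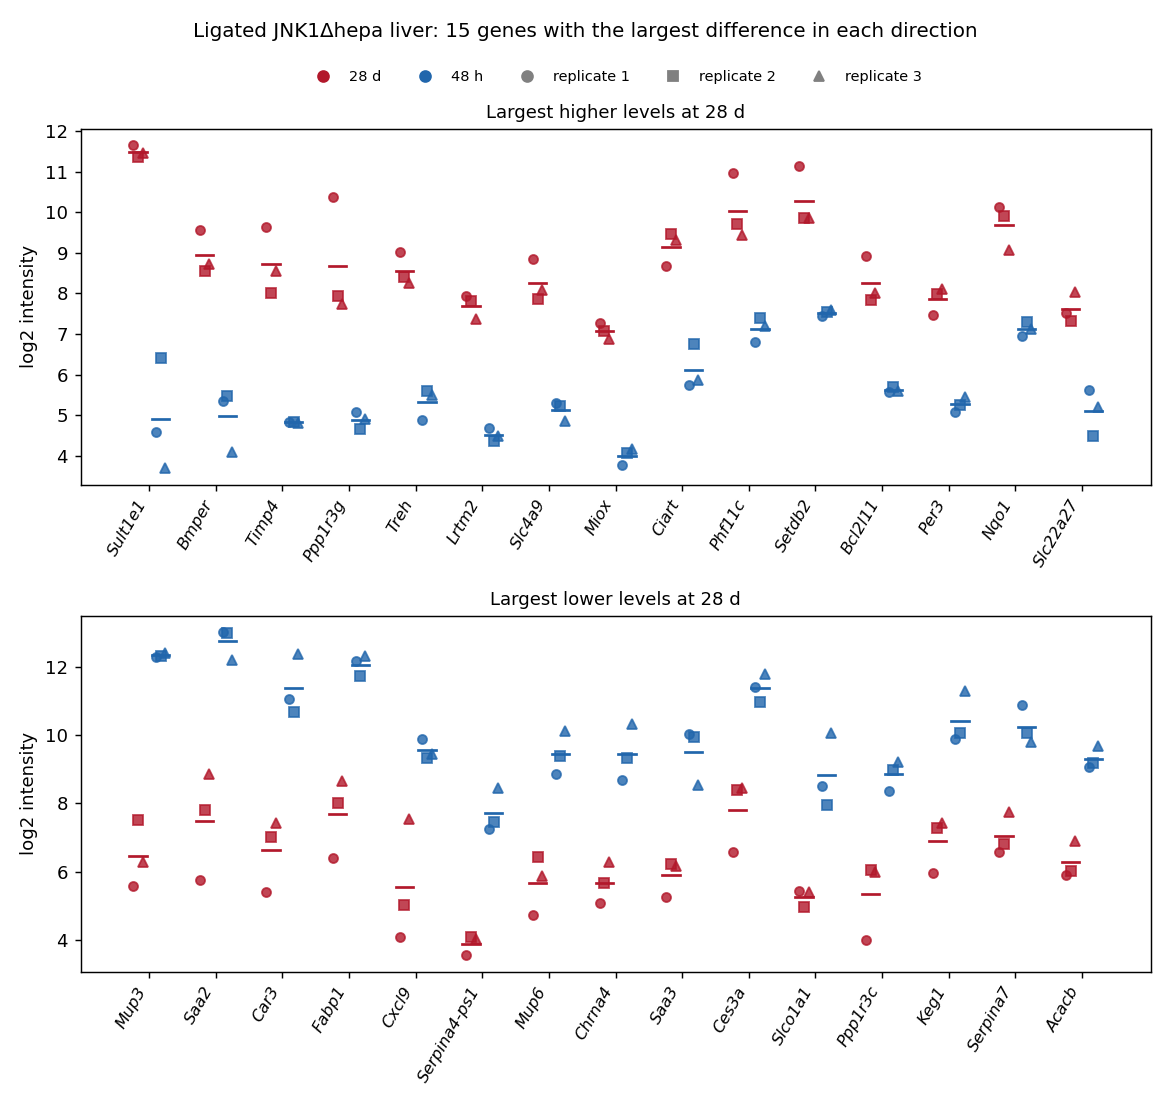
Log2 intensity (vertical axis) on each array of ligated JNK1Δhepa liver for the 15 genes that differed most in each direction (called, with separate groups); points are arrays (28 d left, 48 h right, symbol by replicate) and bars are group means of 3. Replicate 1 at 28 d (circles) is the highest 28 d array for Timp4, Ppp1r3g and Setdb2 and the lowest for Mup3, Saa2 and Fabp1. In these genes it lies on the far side from the 48 h arrays. For Per3 and Slco1a1 it is instead the 28 d array nearest to the 48 h arrays.

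Of 20 measured genes that are more active in male than in female mouse liver, 9 were lower at 28 d and 1 higher, with a median difference of -0.70 against 0.01 over all genes, and the counts were the same without replicate 1 at 28 d or without replicate 3 at 48 h. Besides Mup3, the urinary protein gene Mup21 stood at 3.03, 3.79 and 3.06 at 28 d, against 5.62, 5.68 and 6.21 at 48 h (-2.54 ± 0.28 SE, adjusted p = 2.03e-05), with no overlap. Slco1a1, an organic anion uptake carrier, stood at 5.45, 4.97 and 5.41 at 28 d, against 8.51, 7.97 and 10.06 at 48 h (-3.57 ± 0.46 SE, adjusted p = 8.74e-05). Keg1 fell by 3.51 and C8b, a subunit of the complement attack complex, by 0.74. The exception was Cyp2d9, a steroid hydroxylase, at 10.72, 10.66 and 10.75 at 28 d, against 9.85, 9.79 and 10.24 at 48 h (0.75 ± 0.19 SE, adjusted p = 0.00904). Hsd3b5, a steroid dehydrogenase, did not pass the test: it stood at 3.28, 3.72 and 4.03 at 28 d, against 4.16, 4.57 and 8.63 at 48 h, and replicate 3 at 48 h was more than 4 log2 units above every other array. Of 16 genes more active in female liver, 2 were higher and 1 lower (median -0.03), against 9.3% and 8.67% over all genes. Fmo2, a flavin monooxygenase, rose by 1.96, and Gas6, a ligand of the TAM receptors, fell by 1.61. In the growth hormone and IGF list 2 of 17 genes were higher and 1 lower, against the same shares over all genes. Igfbp3 and Igfbp1, carriers of IGF, differed by 1.69 and 1.52, and Bcl6, a repressor that favours the male pattern in mouse liver, by -1.13. None of these last 3 kept its call without replicate 1 at 28 d.

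Most cell cycle genes fell. Of 31 measured, 22 were lower at 28 d and none higher, and the list's median difference was -1.06. Without replicate 1 at 28 d the count was 17 lower, and without replicate 3 at 48 h it was 16. Mki67, the proliferation antigen Ki-67, stood at 4.63, 4.73 and 4.94 at 28 d, against 7.56, 7.27 and 7.69 at 48 h. All 28 d arrays lay at least 2 log2 units below all 48 h arrays, and the difference was -2.74 ± 0.44 (SE, adjusted p = 0.000413). Top2a, which untangles DNA before mitosis, stood at 4.14, 4.22 and 4.02 at 28 d, against 6.67, 6.18 and 6.49 at 48 h (-2.32 ± 0.40 SE, adjusted p = 0.000644). Cdk1, the kinase that starts mitosis, stood at 5.08, 5.75 and 5.37 at 28 d, against 7.59, 7.14 and 7.59 at 48 h (-2.04 ± 0.32 SE, adjusted p = 0.00034). The groups were separate for both. The checkpoint kinase Bub1, the mitotic kinase Plk1 and the spindle motor Kif11 fell by 2.02, 2.03 and 1.82, and Mcm5, part of the helicase that licenses replication, by 1.66. The sources of these transcripts among liver cell types were not tested.

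Promoters of cell cycle genes are known for CCAAT boxes and for the cell cycle homology region, TTTGAA, bound by repressive complexes in resting cells. The promoters of Top2a and Kif11 are shown because both genes fell and both hold the pair of motifs. The sequences run from 250 bases before to 50 after the gene start on GRCm38.p6 and come from RefSeq, with TTTGAA and CCAAT in capitals on either strand.
Top2a, chr11:99024140-99024439, minus strand: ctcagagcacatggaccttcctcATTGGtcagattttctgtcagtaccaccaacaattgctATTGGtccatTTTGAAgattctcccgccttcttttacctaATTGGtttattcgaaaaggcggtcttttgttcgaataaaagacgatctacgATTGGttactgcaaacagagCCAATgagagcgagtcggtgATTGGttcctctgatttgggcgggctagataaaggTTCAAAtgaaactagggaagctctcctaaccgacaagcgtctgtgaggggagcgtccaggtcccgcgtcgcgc
Kif11, chr19:37376132-37376431, plus strand: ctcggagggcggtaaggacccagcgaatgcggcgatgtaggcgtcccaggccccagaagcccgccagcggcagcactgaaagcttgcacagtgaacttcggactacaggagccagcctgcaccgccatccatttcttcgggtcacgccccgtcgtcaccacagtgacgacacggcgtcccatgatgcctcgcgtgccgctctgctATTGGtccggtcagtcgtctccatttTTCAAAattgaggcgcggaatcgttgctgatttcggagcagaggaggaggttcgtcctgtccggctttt
In Top2a TTTGAA lay 179 and 23 bases before the start and in Kif11 19 bases before it. Promoter sequences were matched for 26 of the 31 list members, of which 11 (42.3%) held TTTGAA and 19 (73.1%) CCAAT, and all 11 held both. Among all 27025 promoters of this length 18.1% held TTTGAA, 37.8% CCAAT and 7.0% both. The match describes letters in these windows and shows no binding.

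Most interferon-stimulated genes fell as well. Of 24 measured, 18 were lower at 28 d and none higher, with a median difference of -1.02; all 24 had a negative difference. Without replicate 1 at 28 d, 11 were lower, and without replicate 3 at 48 h, 14 were. Rsad2, the antiviral enzyme viperin, stood at 5.28, 5.89 and 5.84 at 28 d, against 7.36, 7.22 and 8.01 at 48 h (-1.86 ± 0.26 SE, adjusted p = 0.000155). Psmb8, a subunit of the immunoproteasome, stood at 5.33, 6.03 and 6.06 at 28 d, against 7.37, 7.34 and 7.23 at 48 h (-1.504 ± 0.21 SE, adjusted p = 0.000183). Zbp1, a sensor of nucleic acids, stood at 5.71, 5.95 and 6.52 at 28 d, against 8.76, 8.25 and 8.06 at 48 h (-2.30 ± 0.41 SE, adjusted p = 0.000902). In all 3 genes the groups were separate. The GTPases Gbp3 and Irgm1 fell by 1.13 and 1.13, and the ubiquitin-like Isg15 by 0.57. The interferon-induced chemokines followed: Cxcl9, which draws activated T cells, stood at 4.10, 5.04 and 7.54 at 28 d, against 9.88, 9.34 and 9.45 at 48 h (-3.99 ± 0.71 SE, adjusted p = 0.000838), and Cxcl10 fell by 2.11. The 28 d arrays of Cxcl9 spread over more than 3 log2 units, with replicate 1 lowest. Markers of immune cells were read beside these genes. Of 19 T and NK cell markers none passed the test and all 19 were dimmer than the median gene (log2 5.82) on all 6 arrays, with a mean level of 3.87 to 3.90 at 28 d and 3.88 to 4.01 at 48 h. In dendritic cells 2 of 14 markers were lower, or 0 without replicate 1 at 28 d. In B and plasma cells 4 of 13 were lower, or 1 without replicate 2 or 3 at 28 d or replicate 3 at 48 h. On all 6 arrays 8 of the 14 dendritic and 10 of the 13 B and plasma cell markers were dimmer than the median gene. The part of these cells in the interferon genes was not tested.

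Many interferon-stimulated genes carry an interferon-stimulated response element, whose core holds a pair of GAA triplets, written here as GAAANNGAA. The promoters of Rsad2 and Irgm1 are shown because both genes fell and both hold this core (capitals, either strand; RefSeq, GRCm38.p6).
Rsad2, chr12:26456403-26456702, minus strand: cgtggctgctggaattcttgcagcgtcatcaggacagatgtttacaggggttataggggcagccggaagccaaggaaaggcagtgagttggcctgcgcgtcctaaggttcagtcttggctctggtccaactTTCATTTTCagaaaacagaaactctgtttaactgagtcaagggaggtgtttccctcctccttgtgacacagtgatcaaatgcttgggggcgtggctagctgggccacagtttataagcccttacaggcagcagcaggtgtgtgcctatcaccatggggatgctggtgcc
Irgm1, chr11:48871371-48871670, minus strand: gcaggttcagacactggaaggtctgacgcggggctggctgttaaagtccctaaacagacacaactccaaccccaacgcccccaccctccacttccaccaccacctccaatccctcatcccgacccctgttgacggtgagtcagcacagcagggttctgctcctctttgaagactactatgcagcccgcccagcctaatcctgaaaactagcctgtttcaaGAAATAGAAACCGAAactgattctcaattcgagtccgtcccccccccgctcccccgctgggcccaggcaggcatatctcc
The core began 119 bases before the start in Rsad2, and in Irgm1 a pair of overlapping matches began 30 and 24 bases before it. Of the 18 list members with a promoter sequence, 10 (55.6%) held the core, against 8.6% of all 27025 promoters.

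**Figure D2:**
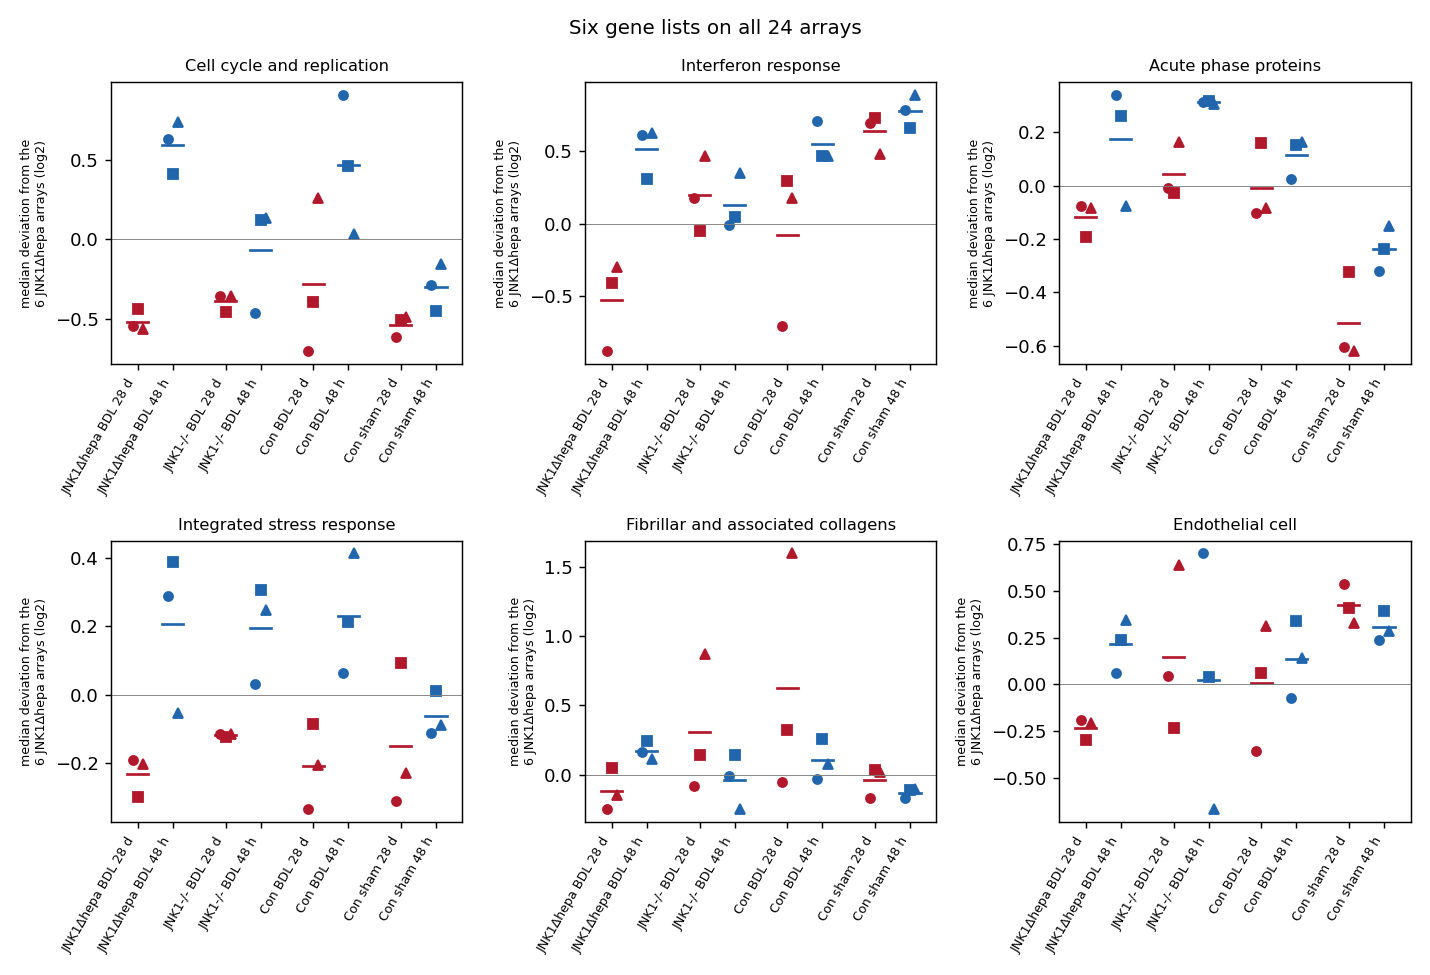
Level of 6 gene lists on all 24 arrays, as the median over a list's members of the log2 deviation from each gene's mean over the 6 JNK1Δhepa arrays (vertical axis); points are arrays (red 28 d, blue 48 h, symbol by replicate), bars are group means of 3. In JNK1Δhepa liver the 28 d and 48 h arrays are separate for the cell cycle, interferon and endothelial lists, whereas replicate 1 of ligated Con liver at 28 d (circle) lies near the JNK1Δhepa 28 d arrays and away from its own group on the interferon list.

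The acute phase response was lower at 28 d in part of its members. Of 25 measured, 10 were lower and 1 higher, with a median of -0.24. Without replicate 1 at 28 d the counts were 4 lower and 1 higher, and without replicate 3 at 48 h 12 lower and 0 higher. The serum amyloid genes led: besides Saa2, Saa3 stood at 5.27, 6.23 and 6.18 at 28 d, against 10.03, 9.93 and 8.55 at 48 h (-3.61 ± 0.66 SE, adjusted p = 0.00113) and Saa4 fell by 1.64. Crp, C-reactive protein, stood at 10.31, 10.67 and 10.95 at 28 d, against 12.24, 11.91 and 11.70 at 48 h (-1.31 ± 0.21 SE, adjusted p = 0.000401). Steap4, a metalloreductase induced by cytokines, fell by 1.87. Replicate 3 at 48 h was the lowest 48 h array for all of these genes. Hamp, the iron hormone hepcidin, was the member that rose, at 12.65, 12.76 and 12.86 at 28 d, against 12.11, 12.43 and 11.31 at 48 h (0.81 ± 0.22 SE, adjusted p = 0.0145), and its call was lost without replicate 3 at 48 h. Among 26 cytokines and chemokines 3 were lower and none higher, Cxcl9, Cxcl10 and Cxcl1, and 1 was lower without replicate 1 at 28 d or without replicate 1 or 2 at 48 h. Cxcl1, which draws neutrophils, stood at 6.25, 7.85 and 7.49 at 28 d, against 9.85, 9.33 and 7.85 at 48 h, so the 28 d and 48 h arrays nearly met (-1.81 ± 0.61 SE, adjusted p = 0.0462), and its call was lost in 8 of 15 alternatives. Among 25 complement and coagulation genes 8 were lower and none higher, or 1 lower without replicate 1 at 28 d. The mannose-binding lectins Mbl2 and Mbl1 fell by 0.84 and 1.16, and F7, coagulation factor VII, by 0.68.

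In the list of endoplasmic reticulum and amino acid stress genes, 8 of 19 were lower and 3 higher at 28 d (7 and 0 without replicate 1 at 28 d). The lower ones were mainly chaperones of the endoplasmic reticulum. Dnajb9 stood at 9.51, 9.75 and 9.67 at 28 d, against 11.13, 11.32 and 10.88 at 48 h (-1.47 ± 0.22 SE, adjusted p = 0.000249), and Sdf2l1 at 8.51, 9.04 and 9.17 at 28 d, against 10.78, 11.02 and 10.98 at 48 h (-2.02 ± 0.36 SE, adjusted p = 0.000816). Creld2, Hspa5 (BiP) and Hsp90b1 (GRP94) fell by 2.02, 0.83 and 0.66. All 28 d arrays lay below all 48 h arrays in each of these 5 genes. The higher ones included Ddit4, an inhibitor of mTORC1 signalling, at 2.45, and Asns, asparagine synthetase, at 1.56.

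Of 19 bile acid and drug transporters 7 were higher and 5 lower at 28 d; over the fits that left out 1 of the 6 arrays the counts were 4 to 7 and 3 to 4. Abcc4, which exports bile acids across the basolateral membrane into blood, stood at 8.58, 8.26 and 7.46 at 28 d, against 5.95, 6.59 and 6.39 at 48 h (1.79 ± 0.28 SE, adjusted p = 0.000414). Abcc3, a further basolateral exporter, stood at 11.79, 11.81 and 11.52 at 28 d, against 11.01, 10.96 and 11.25 at 48 h (0.63 ± 0.11 SE, adjusted p = 0.000596). Slco1a4, an uptake carrier, stood at 11.55, 11.24 and 11.39 at 28 d, against 9.77, 9.83 and 9.95 at 48 h (1.54 ± 0.20 SE, adjusted p = 9.18e-05). The groups were separate in all 3. Abcb11, the bile salt export pump of the canaliculus, was lower, at 10.48, 11.10 and 11.13 at 28 d, against 12.00, 12.02 and 12.15 at 48 h (-1.15 ± 0.26 SE, adjusted p = 0.00473). Slc22a7, an organic anion carrier, fell by 1.83. Among 16 enzymes of bile acid synthesis 2 were higher and none lower, Akr1d1 by 0.65 and Acox2 by 0.44. Cyp7a1, the rate-limiting enzyme, stood at 9.98, 11.30 and 11.44 at 28 d, against 8.48, 7.37 and 10.85 at 48 h, and Cyp8b1, which makes cholic acid, at 9.76, 10.20 and 9.40 at 28 d, against 7.19, 5.90 and 9.93 at 48 h. Replicate 3 at 48 h lay within the 28 d range of both genes while the other 48 h arrays lay below it, and neither passed the test (adjusted p = 0.266 and 0.139). Nr0b2, the bile acid-induced repressor SHP, fell by 1.40 (adjusted p = 0.0452), a call lost in each of the 6 fits that left out an array. Klb, the co-receptor for FGF15 and FGF21, rose by 0.96.

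Among sulfotransferases and UGTs 4 of 15 genes were higher and 2 lower. After Sult1e1, the higher ones included Sult1d1 (1.01) and Sult1b1 (1.25), which sulfate phenols and amines. Sult2a8, a bile acid sulfotransferase of male mouse liver, was lower, at 4.98, 6.39 and 6.66 at 28 d, against 8.13, 6.96 and 9.70 at 48 h (-2.25 ± 0.54 SE, adjusted p = 0.00666), and lost its call without replicate 1 at 28 d. Of 22 cytochrome P450 genes of families 1 to 3, which oxidise drugs and steroids, 5 were higher and 3 lower (median 0.45); without replicate 1 at 28 d 4 were higher and 1 lower. Cyp2c39 and Cyp2j9 rose by 0.99 and 0.93, and Cyp2d40 and Cyp2j5 fell by 1.497 and 1.43. In the NRF2 list 2 of 20 genes were higher, Nqo1 and Abcc4, and 2 lower, Osgin1 by -1.78 and Me1 by -1.03. These counts were near the 9.3% and 8.67% over all genes.

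Of 27 genes of fatty acid and triglyceride synthesis 10 were lower and 5 higher (5 and 5 without replicate 1 at 28 d, and also without replicate 3 at 48 h). Acacb, the acetyl-CoA carboxylase whose product restrains fat oxidation, stood at 5.90, 6.04 and 6.90 at 28 d, against 9.06, 9.18 and 9.67 at 48 h (-3.03 ± 0.35 SE, adjusted p = 2.79e-05). Mlxipl, the carbohydrate-sensing transcription factor ChREBP, stood at 9.15, 9.20 and 9.34 at 28 d, against 10.08, 9.80 and 10.21 at 48 h (-0.80 ± 0.11 SE, adjusted p = 0.000161). Acly, which supplies cytosolic acetyl-CoA, fell by 1.52. Among the higher members Pparg, the adipogenic nuclear receptor, stood at 9.54, 9.63 and 9.31 at 28 d, against 8.41, 8.20 and 8.37 at 48 h (1.16 ± 0.13 SE, adjusted p = 2.46e-05), and the phosphatidate phosphatases Lpin1 and Lpin2 rose by 1.61 and 1.34. No group overlapped in these genes. Of 23 genes of fatty acid oxidation 4 were higher and 3 lower. Ppargc1a, a coactivator of fasting metabolism, stood at 10.70, 10.32 and 10.21 at 28 d, against 8.94, 8.53 and 8.55 at 48 h (1.74 ± 0.34 SE, adjusted p = 0.00159). Slc25a20 and Cpt1a, which bring fatty acids into mitochondria, rose by 0.61 and 0.48, and Angptl4, a lipase inhibitor, by 1.24. Vnn1 and Plin2, a lipid droplet coat protein, fell by 1.94 and 0.95. Among 20 cholesterol synthesis genes 3 were lower, Ebp, Tm7sf2 and Sc5d, and the median was -0.53; without replicate 1 at 28 d or replicate 3 at 48 h the count was 1.

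In glucose and amino acid metabolism 10 of 22 genes were higher and 3 lower; without replicate 1 at 28 d these counts were 3 and 1. The urea cycle enzymes Asl and Arg1 rose by 1.25 and 0.53, the transaminase Got1 by 1.20 and the gluconeogenic enzyme G6pc by 1.27, whereas Otc, a further urea cycle enzyme, fell by 1.26. The glycogen-targeting subunits of protein phosphatase 1 diverged: against the rise of Ppp1r3g, Ppp1r3c stood at 4.02, 6.04 and 5.98 at 28 d, against 8.38, 8.99 and 9.23 at 48 h (-3.52 ± 0.51 SE, adjusted p = 0.000199) and Ppp1r3b fell by 1.17. Feeding state at collection was not given in the sources used here, and its part was not tested.

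Circadian clock genes differed between the times, a list chosen after their values were seen and so given as a description of calls from the fit over all genes. Of 18 listed 15 were measured, of which 8 were higher and 2 lower at 28 d. The call of Clock was lost in each of the 6 fits that left out an array, and that of Per2 in 5 of them. Per1, Per2, Per3, Cry2, Ciart and Nr1d2 are repressors of the clock, and Tef and Hlf are PAR-domain activators that follow it. Per1 stood at 9.68, 9.57 and 9.41 at 28 d, against 7.95, 7.72 and 7.53 at 48 h (1.82 ± 0.35 SE, adjusted p = 0.00141), and Per3 at 7.48, 7.98 and 8.12 at 28 d, against 5.09, 5.26 and 5.46 at 48 h. Cry2 stood at 9.24, 8.84 and 8.63 at 28 d, against 6.78, 6.91 and 7.14 at 48 h (1.96 ± 0.29 SE, adjusted p = 0.000249). The groups were separate by more than 1 log2 unit in each. Npas2, a partner of Bmal1 (Arntl) that drives the clock, went the other way, at 5.37, 6.13 and 5.99 at 28 d, against 8.20, 7.80 and 8.80 at 48 h (-2.44 ± 0.54 SE, adjusted p = 0.00426), and Clock fell by 0.39. Arntl itself stood at 8.76, 8.06 and 8.13 at 28 d, against 8.14, 8.12 and 8.13 at 48 h, which gave no call (adjusted p = 0.868). In ligated JNK1-/- liver none of the 15 passed the test (median difference 0.08) and in sham Con liver none did (-0.07). In ligated Con liver 5 did (0.46). Over all genes 1.94% were higher and 0.898% lower in JNK1-/- liver, and 0.0903% and 0.0425% in sham Con liver. In ligated Con liver these shares were 5.11% and 5.31%. At the JNK1-/- and sham shares, none of 15 does not show that these genes were flat there. The interaction between JNK1Δhepa and JNK1-/- courses was called for 6, against 2.43% over all genes. Among them were Npas2 at -2.91 ± 0.77 (SE, adjusted p = 0.0493) and Per1 at 2.002 ± 0.49 (SE, adjusted p = 0.0381). The time of day of collection was not given in the sources used here, and its part in any difference was not tested.

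**Figure D3:**
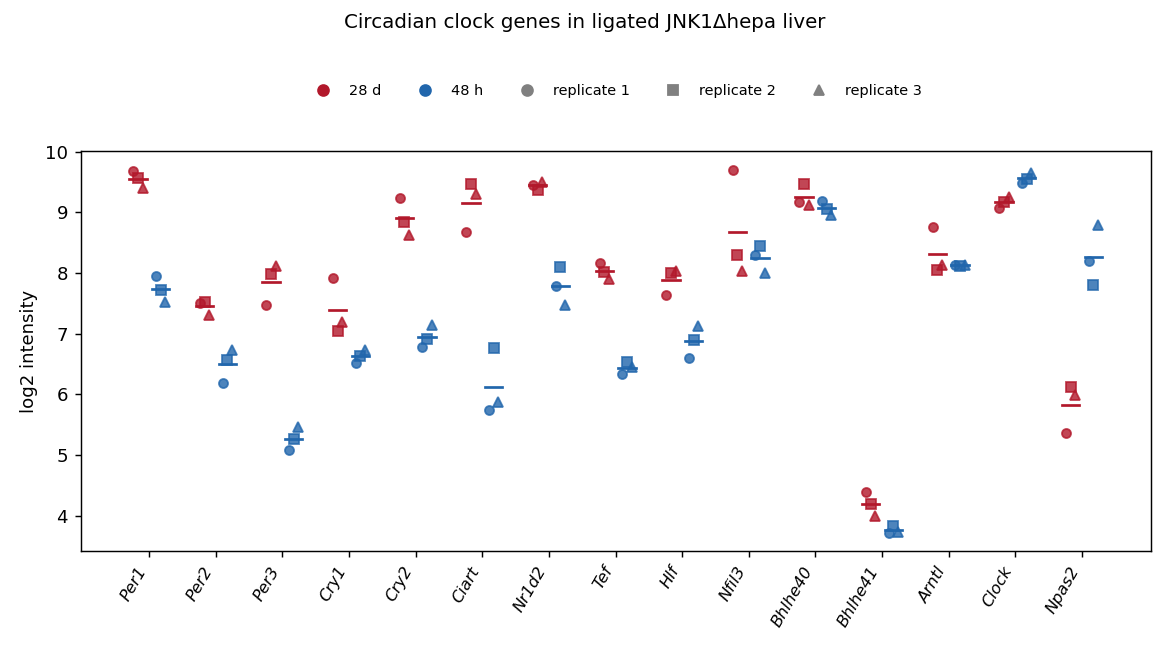
Log2 intensity (vertical axis) of 15 clock genes on each array of ligated JNK1Δhepa liver; points are arrays (28 d left in red, 48 h right in blue, symbol by replicate) and bars are group means of 3. Per, Cry2, Ciart and Nr1d2 levels are higher on all 28 d arrays and Npas2 is lower on all of them, while Arntl, Nfil3 and Bhlhe40 overlap.

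No collagen of scar tissue passed the test upward in ligated JNK1Δhepa liver. Of 14 fibrillar and associated collagens none was higher and 2 were lower, Col5a3 by -0.46 and Col15a1 by -0.66, with a median of -0.31. The call of Col15a1 was lost in each of the 6 fits that left out an array. Without replicate 2 or 3 at 48 h neither collagen was called. In ligated JNK1-/- liver none of the 14 was called (median 0.37). In ligated Con liver 1 was higher and 1 lower (0.43), against 5.11% and 5.31% over all genes. The tests of the difference from the Con and JNK1-/- courses called none of the 14. Col1a1, the main collagen of scars, stood at 6.61, 6.95 and 6.72 at 28 d, against 7.27, 7.26 and 7.15 at 48 h, and its difference of -0.47 ± 0.39 (SE, adjusted p = 0.486) did not pass the test. Col3a1 stood at 5.89, 6.30 and 5.87 at 28 d, against 7.28, 6.97 and 7.03 at 48 h and missed it as well (-1.07 ± 0.39 SE, adjusted p = 0.0617). Acta2, the smooth muscle actin of myofibroblasts, differed by -0.59 ± 0.71 (SE, adjusted p = 0.651), with a 95% interval from -2.07 to 0.89. For each of these 3 genes every 28 d array lay below every 48 h array, and in a limma fit to these 6 arrays alone, which takes the spread from these arrays only, all 3 were called lower (adjusted p = 0.0181 for Col1a1, 0.00208 for Col3a1 and 0.00678 for Acta2). Of 23 stellate cell and myofibroblast markers 2 were lower, near the 8.67% over all genes. Ngfr stood at 6.42, 6.82 and 6.45 at 28 d, against 7.87, 7.69 and 8.01 at 48 h (-1.30 ± 0.27 SE, adjusted p = 0.0024). Rgs5 fell by 1.07, a call lost in each of the 6 fits that left out an array. Among 22 matrix remodelling genes 2 were higher, Mmp7 and Mmp9, and 1 lower, P4ha1, a collagen prolyl hydroxylase. Without replicate 1 at 28 d none was higher and 1 was lower. Over all genes 9.3% were higher and 8.67% lower. Mmp7, matrilysin, stood at 8.88, 6.63 and 6.74 at 28 d, against 5.18, 5.14 and 4.94 at 48 h (2.33 ± 0.77 SE, adjusted p = 0.0423), and its call was lost without replicate 1 at 28 d, its highest array, and without any 1 of the 48 h arrays. P4ha1 fell by 1.18. In the TGF-beta and matricellular list 3 of 20 genes were higher and 1 lower. Beside Bmper, Ccn2, a matricellular growth factor, stood at 9.43, 9.30 and 8.90 at 28 d, against 7.74, 7.47 and 7.56 at 48 h (1.62 ± 0.31 SE, adjusted p = 0.00158) and Smad7, the inhibitory Smad induced by TGF-beta, at 7.86, 8.17 and 7.42 at 28 d, against 6.71, 6.76 and 6.58 at 48 h (1.13 ± 0.19 SE, adjusted p = 0.000648), while Sparc fell by 0.93, a call lost in each of the 6 fits that left out an array. In the basement membrane list Lama5 rose by 0.96.

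Of 20 cholangiocyte markers 1 was higher and 1 lower, which is below the 9.3% and 8.67% over all genes. Cldn4, a tight junction protein, was higher (0.91) and Sox9, the ductal transcription factor, lower, at 7.03, 7.69 and 7.97 at 28 d, against 9.24, 9.06 and 8.49 at 48 h (-1.36 ± 0.36 SE, adjusted p = 0.0123); neither was called without replicate 1 at 28 d. The mean level of these markers was 6.20 to 6.53 at 28 d and 6.52 to 6.64 at 48 h. Of 24 macrophage markers 4 were higher and 3 lower. Gpnmb, Ctss and Cd9, genes found in scar-associated macrophages, rose by 1.89, 0.48 and 0.44. Trem2, a further such gene, differed by 0.70 and lay at the threshold (adjusted p = 0.04996), and its call was lost without any 1 of 5 of the 6 arrays. Ccr2, the receptor of recruited monocytes, and the Kupffer cell genes Cd5l and Timd4 fell by 1.55, 0.60 and 0.68. Without replicate 1 at 28 d, 1 marker of this list was called. Of 21 endothelial markers 5 were lower and none higher, with a median of -0.48: Clec4g, Fcgr2b, Gpr182, Kdr and Stab2. Of these, Clec4g, Fcgr2b, Gpr182 and Stab2 mark liver sinusoids. The call of Stab2 was lost in each of the 6 fits that left out an array. That of Kdr was lost without any 1 of the 28 d arrays or without replicate 2 or 3 at 48 h. Clec4g stood at 10.14, 10.11 and 10.09 at 28 d, against 11.02, 11.30 and 11.14 at 48 h (-1.04 ± 0.25 SE, adjusted p = 0.00724), with the groups apart. Over the fits that left out 1 of the 6 arrays 1 to 4 endothelial markers were lower, the fewest without replicate 2 at 28 d or at 48 h, and 1 was higher without replicate 3 at 48 h.

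In the list of JNK kinases and AP-1 genes 2 of 18 were higher and 2 lower, near the 9.3% and 8.67% over all genes, and over the fits that left out 1 of the 6 arrays each count was 1 or 2. Dusp1, a phosphatase that switches off JNK and p38, stood at 11.13, 10.73 and 10.23 at 28 d, against 9.57, 9.36 and 9.90 at 48 h (1.08 ± 0.22 SE, adjusted p = 0.00219). Fosl2, an AP-1 subunit, rose by 0.84. Its call was lost without replicate 1 or 2 at 28 d or without any 1 of the 48 h arrays. Atf3, a stress-induced AP-1 partner, stood at 6.89, 6.53 and 6.44 at 28 d, against 8.05, 8.94 and 8.06 at 48 h (-1.73 ± 0.51 SE, adjusted p = 0.0233), and Map3k1, a kinase upstream of JNK, fell by 0.59. Jun stood at 9.38, 9.60 and 9.35 at 28 d, against 10.41, 10.16 and 10.15 at 48 h and missed the test (adjusted p = 0.0594; 0.00269 in the fit to the 6 arrays alone). Mapk9, which encodes Jnk2, differed by 0.16 ± 0.08 (SE, adjusted p = 0.165), and Mapk10 was at most 3.25 on all 6 arrays, below the median gene. Of 18 p53 targets and cell death genes 3 were higher, among them Bcl2l11 and Sesn1 (1.11). Lower were 3, among them Tnfrsf10b, a TRAIL receptor (-0.86), and Ccng1 (-0.50). Without replicate 1 at 28 d, 2 were higher and 1 lower. The call of Tnfrsf10b was lost in each of the 6 fits that left out an array.

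**Figure D4:**
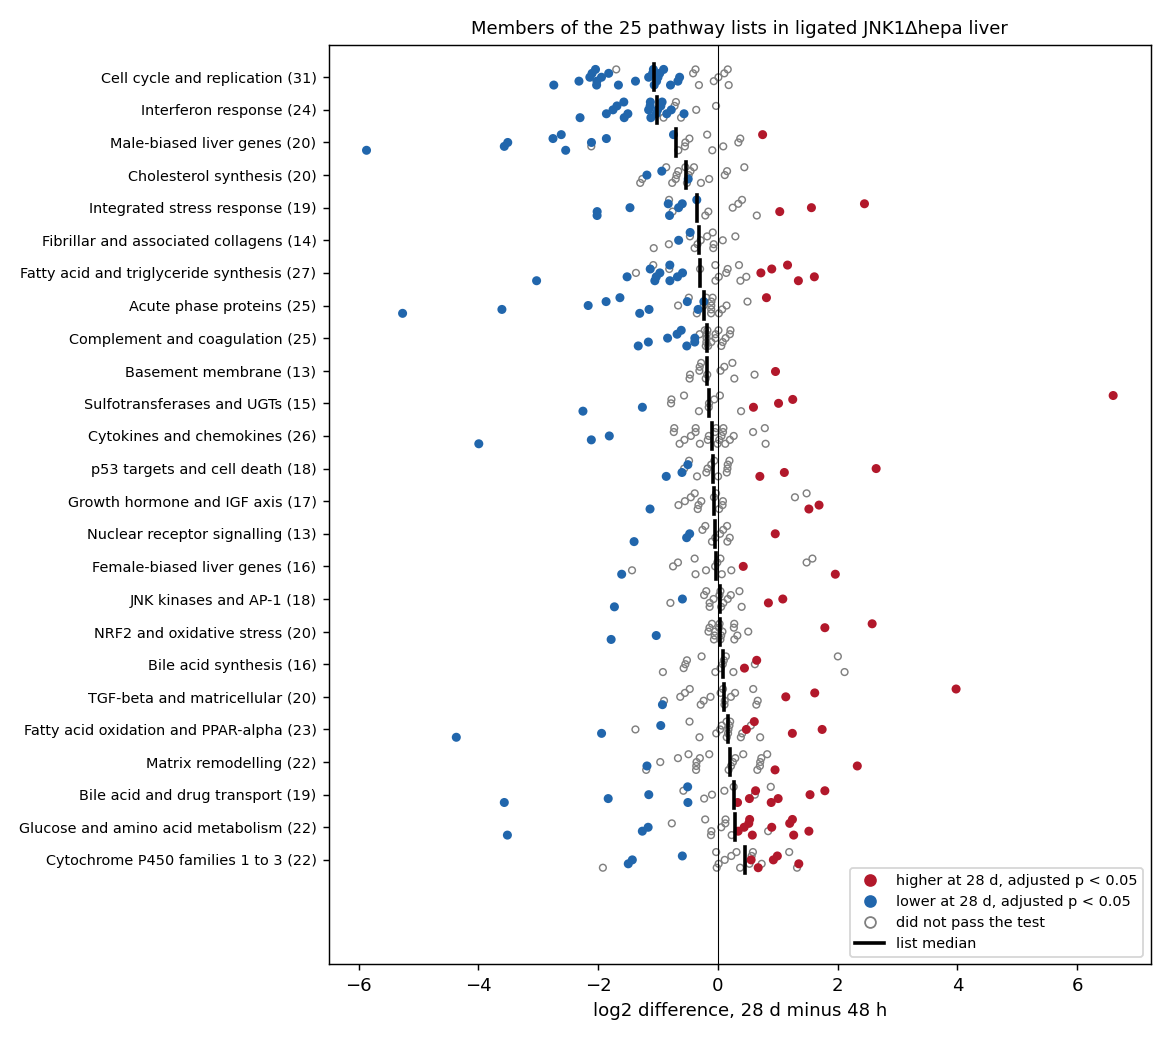
Log2 difference, 28 d minus 48 h (horizontal axis), of every measured member of 25 pathway lists in ligated JNK1Δhepa liver, with the number measured in brackets; filled points passed the test at an adjusted p under 0.05, open points did not, and black bars are list medians. Cell cycle (median -1.06) and interferon (-1.02) members lie almost wholly on the lower side, whereas the lipid, transport and glucose lists hold called members on both sides.

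The same interval in the other groups was set beside the JNK1Δhepa course. These courses share no arrays with it, but all took each gene's spread from the same fit over 24 arrays, so their calls are not independent. In ligated Con liver 962 genes were higher (5.11%) and 1000 lower (5.31%). Of the 1751 genes higher in JNK1Δhepa, 610 were also higher in Con, 34.8% of the JNK1Δhepa list and 63.4% of the Con list; of the 1631 lower, 619 were (38% and 61.9%). In opposite directions, 1 gene was called. The test of the difference between the courses called 0 genes (limma, smallest adjusted p = 0.324), while 1338 genes had an unadjusted p under 0.05. The gene with that smallest p was Nnt, a mitochondrial transhydrogenase that is deleted in part in the C57BL/6J substrain. Nnt stood at 9.88, 10.12 and 10.26 at 28 d, against 9.05, 8.84 and 8.97 at 48 h in JNK1Δhepa liver, a difference of 1.13, against -0.35 in ligated Con and 0.95 in sham Con liver; substrain was not tested. For Sult1e1 the difference between the courses was 1.31 ± 0.96 (SE), with a 95% interval from -0.70 to 3.31, and for Mki67 it was -1.25 ± 0.62 (SE) (from -2.54 to 0.04). A miss at this precision does not show that the courses were alike. The count depended on the Con arrays: it was 55 without replicate 1 of ligated Con liver at 28 d, 3 without replicate 2, 1 without replicate 3, and 221 with arrays weighted by their quality.

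In ligated JNK1-/- liver 365 genes were higher (1.94%) and 169 lower (0.898%). Of the JNK1Δhepa lists, 148 of the higher and 51 of the lower genes were called the same way there, 8.45% and 3.13%, or 40.5% and 30.2% of the JNK1-/- lists. Called in the opposite direction there were 7 of the higher and 6 of the lower genes. The test of the difference between these courses called 457 genes (2.43%), 228 higher (1.21%) and 229 lower (1.22%) in the JNK1Δhepa course. Leaving out replicate 1 of JNK1Δhepa at 28 d brought this to 70, replicate 3 of JNK1Δhepa at 48 h to 126 and replicate 3 of JNK1-/- at 28 d to 80. Sult1e1 differed by 4.55 ± 0.96 (SE, adjusted p = 0.0199). Car3 fell in JNK1Δhepa and had a difference of 1.82 (adjusted p = 0.174) in JNK1-/-, so the courses differed by -6.57 ± 0.98 (SE, adjusted p = 0.00505). Chrna4 differed by -6.03 ± 1.14 (SE, adjusted p = 0.0125), and Setdb2 and Phf11c by 3.54 and 3.60. Obp2a, a lipocalin, and Slc22a26, an organic anion carrier, were flat in JNK1Δhepa (0.17 and -0.44, not called) and moved in JNK1-/- liver, by -3.61 and 4.48, which gave differences of 3.78 and -4.92. Sprr1a and Gask1a, the other leading genes, differed by -4.93 and -3.98. In the interferon list 7 of 24 genes were called lower in the JNK1Δhepa course, among them Rsad2 (-1.68 ± 0.37 SE, adjusted p = 0.0259) and Psmb8 (-1.39 ± 0.30 SE, adjusted p = 0.0259). In the fatty acid synthesis list 8 of 27 were called lower and 1 higher, among them Acacb (-3.34 ± 0.50 SE, adjusted p = 0.00505), Thrsp (-3.57 ± 0.86 SE, adjusted p = 0.0362), Acly and Fasn (-2.45 and -2.20). Among fatty acid oxidation genes 4 of 23 were called higher, with Angptl4 at 2.36 ± 0.43 (SE, adjusted p = 0.011). In the cell cycle list 1 of 31 was called.

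Sham Con liver changed little over the same interval, with 17 genes higher (0.0903%) and 8 lower (0.0425%), and this course carries the same difference in age. Mapk8 differed between its times, at 7.52 to 7.54 at 28 d and 6.67 to 6.93 at 48 h. At 48 h it was thus near the JNK1Δhepa level (6.76 to 6.81), and the cause was not tested. The JNK1Δhepa course differed from it for 374 genes upward (1.99%) and 332 downward (1.76%). The largest differences upward were Sult1e1 (6.35 ± 0.96 SE, adjusted p = 0.00239), Bmper (4.11 ± 0.74 SE, adjusted p = 0.00634), Timp4, Phf11c and Treh (3.99, 3.52 and 3.43), and downward Mup3 (-5.92 ± 0.73 SE, adjusted p = 0.000505), Serpina4-ps1, Car3, Fabp1 and Chrna4 (-5.04, -4.85, -4.47 and -4.09). This comparison differs in genotype as well as in the operation.

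**Figure D5:**
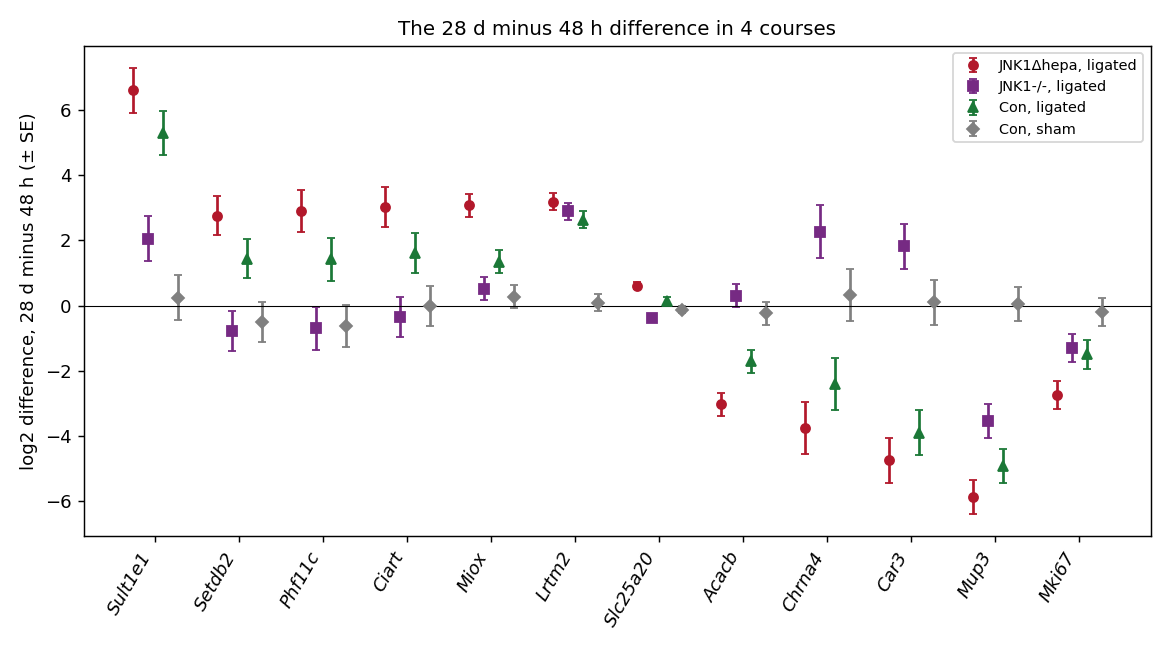
Log2 difference, 28 d minus 48 h (vertical axis), with SE for 12 genes in the 4 courses; each point compares 3 arrays with 3. Lrtm2 is about 3 in all ligated courses, Sult1e1 and Mup3 run the same way in all 3 of them, and Car3 and Chrna4 lie below 0 in JNK1Δhepa and Con but above 0 in JNK1-/- liver.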

How the data were processed

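Total liver RNA of male mice (TRIzol, then RNeasy; integrity over 8) was amplified and biotin-labelled, per the labels' protocols. The authors deposited RMA values, log2 intensity for each probe set, per the submitters' processing notes; its version is not given in the sources used here. Of 35556 probe sets 21218 had 1 gene symbol, and the brightest stood for each of 18820 symbols. Names were updated to RefSeq on GRCm38.p6, also the source of promoters.

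Differences were fitted with limma 3.58.1 in R 4.3.3, with a mean for each of 8 groups over all 24 arrays, moderated variances and Benjamini-Hochberg adjustment; calls used an adjusted p under 0.05. Courses were compared by interaction. In simulated data with known changes, 86.57% of genes changed by 1 log2 unit were called in the JNK1Δhepa comparison of 18820 genes, and 38.81% of those changed by 0.5. The simulation changed only 67, 67 and 66 genes by 0.5, 1 and 2 log2 units, whereas 3382 genes were called in the data. Its noise was independent between arrays and genes, with no array apart. These percentages are therefore no measure of detection in the data. Named genes were the 15 per direction with the largest difference among called genes with separate groups, 5 per direction in each interaction and the 5 members of each of 38 lists with the smallest p; other genes named were chosen after their values were seen. Members and lists were chosen with earlier results of these data known. Of 779 listed symbols 686 were measured. Alternatives were quantile normalization, median centring, a brightness filter, other variance models and weights, probe set means, stricter thresholds and leaving out arrays. Python, pandas and matplotlib drew the figures.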

Additional observations from a re-analysis of the deposited data

Results flagged for a closer look

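Genes named in the report were marked where the test of the difference between courses passed an adjusted p of 0.05 (limma, over all genes); against ligated Con liver none did. Against ligated JNK1-/- liver, the course of ligated JNK1Δhepa liver (28 d minus 48 h) was higher by these amounts on the log2 scale: 4.55 for Sult1e1, 3.78 for Obp2a, 3.60 for Phf11c, 3.54 for Setdb2, 3.37 for Ciart, 2.56 for Miox, 2.36 for Angptl4, 2.04 for Fmo2, 2.002 for Per1, 1.85 for Tef, 1.75 for Cry2, 1.57 for Cyp2d9, 1.58 for Nr1d2, 1.36 for Slco1a4, 1.30 for Lpin2, 1.04 for Sult1d1, 1.002 for Cpt1a and 0.98 for Slc25a20. It differed downward by -6.57 for Car3, -6.03 for Chrna4, -4.93 for Sprr1a, -4.92 for Slc22a26, -3.98 for Gask1a, -3.57 for Thrsp, -3.34 for Acacb, -2.91 for Npas2, -2.49 for Slc22a7, -2.45 for Acly, -2.20 for Fasn, -1.96 for Gas6, -1.68 for Rsad2, -1.39 for Psmb8, -1.18 for Gbp3, -1.12 for Mlxipl, -1.05 for Mbl2, -0.86 for Cyp2d40 and -0.80 for Ebp. Genes were tested over all 18820, and the count of such genes fell to 70 without replicate 1 of JNK1Δhepa at 28 d.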

How the results depend on the processing

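The counts moved with single arrays, thresholds and the fit; the cause was not tested. Leaving out 1 array at a time, genes higher at 28 d than at 48 h in ligated JNK1Δhepa liver numbered 1041 to 1436 and genes lower 878 to 1324, the lowest counts both without replicate 1 at 28 d. Genes whose course differed from that of ligated JNK1-/- liver numbered 70 to 458, from sham Con liver 213 to 614, and from ligated Con liver 0 to 55. At an adjusted p under 0.01 there were 881 higher and 796 lower genes, with 35 for the JNK1-/- comparison and 114 for the sham comparison. At an adjusted p under 0.05 with a 2-fold limit added, these counts were 309, 397, 235 and 367. Array weights gave 2618 lower genes and 221, 1693 and 2786 for the Con, JNK1-/- and sham comparisons. Fitting only the groups compared gave 815 and 2423 for the JNK1-/- and sham comparisons. Testing only genes brighter than the median gene gave 720 for JNK1-/-, and leaving out the arrays titled Con sham 48h gave 168. The other recomputed counts were within 1.5 times those reported. Replicate numbers did not pair the arrays: same-numbered 28 d and 48 h arrays had correlated deviations of 0.16, -0.10 and 0.14, and with the replicate number as a block in a fit to the 6 arrays 1813 genes were higher and 2004 lower. Of 182 genes named in the tables behind the text, 154 were called, and 101 of them in every fit at the same threshold; none was called in opposite directions. Of 304 recomputed list medians 21 moved by more than the spread between arrays. With 3 arrays a group, the number of arrays limits the precision.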
